A study of Mus musculus with 16 samples.

Results

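The MYC network genes described here were Myc, Mycn, Max, Mnt, Mga, Mxd1, Mxd3 and Mxd4, 8 of the 18193 genes that the array annotation names. They were chosen by name and not by a rule on their values, though with earlier results of these data known. Each probe set, the group of short oligonucleotides that reads a transcript, was taken where the annotation gave it one of these symbols alone, in its current or an older form. This gave 22 of 45037 probe sets. RNA of Eμ-xbp-1s MM (6 arrays), of Eμ-xbp-1s B cells (5 arrays) and of nontransgenic B cells (5 arrays) was hybridised to Affymetrix mouse arrays. Eμ-xbp-1s mice carried the mouse cDNA of spliced Xbp1 under an immunoglobulin VH promoter and the Eμ enhancer, with an eGFP reporter, on C57BL/6. The enhancer is active throughout B cell development and in some T cells. The B cells of both genotypes were B220+ cells taken with magnetic beads from spleens of mice 20 weeks old. Eμ-xbp-1s MM were myeloma tumors that arose in the transgenic mice, for which the methods name no sort and the labels no age. Of the founder lines, 2 were propagated, and the line behind each array was not given in the sources used here. The B cell arrays stood for 5 mice of each genotype. The sources used here do not say that the 6 tumors came from separate mice, so for MM a p-value speaks only for the spread between samples, which may be technical in part.

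MAX is the obligate partner of this family of basic helix-loop-helix leucine zipper proteins. A MYC or MYCN dimer with MAX binds the E-box CACGTG and activates genes of growth and metabolism, whereas the MXD proteins, MNT and MGA form dimers with MAX that bind the same sites and repress transcription. In the B lineage Myc is known for its induction in activated and germinal center cells, its repression as plasma cells form, and its activation by translocation in mouse plasmacytomas and in part of human myelomas.

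Because the E-box joins the members, the promoters of the members themselves were read. RefSeq promoter windows (GRCm38.p6, 250 bases before to 50 after the start of a transcript) were matched for 7 of the 8 genes (all but Myc), and CACGTG, which reads the same on both strands, stood in 3 of these 7 windows (Mxd4, Mnt and Max) and in 7.15% of 32851 windows of all genes. The 30 bases around each are shown, with the E-box in capitals. They lie at chr5:34187912-34187941 on the minus strand for Mxd4, at chr11:74830789-74830818 on the plus strand for Mnt and at chr12:76962234-76962263 on the minus strand for Max.
Mxd4: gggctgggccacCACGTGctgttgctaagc
Mnt: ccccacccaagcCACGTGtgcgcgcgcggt
Max: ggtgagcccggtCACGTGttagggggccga
The E-box began 219 bases before the start in Mxd4, 123 before it in Mnt and 3 before it in Max. Mxd1 and Mga, the genes with calls in the tests, held none in these windows. Their promoters are shown whole, because Mxd1 carried 6 copies of the GC box GGGCGG (searched on both strands, in 35.7% of all windows and in 6 of the 7 of the members) and because Mga alone of these 7 held TGACGTGG, the element of the unfolded protein response that XBP1 and ATF6 are known to bind (searched on both strands, in 0.676% of all windows). Several GC boxes were not particular to Mxd1, since Mxd3 carried 8 and Mnt 4. Capitals mark the GC boxes in Mxd1, of which the pair nearest the start overlap, and TGACGTGG in Mga, which began 10 bases before the start and overlapped no other motif searched. The windows are chr6:86669110-86669409 on the minus strand for Mxd1 and chr2:119896978-119897277 on the plus strand for Mga.
Mxd1: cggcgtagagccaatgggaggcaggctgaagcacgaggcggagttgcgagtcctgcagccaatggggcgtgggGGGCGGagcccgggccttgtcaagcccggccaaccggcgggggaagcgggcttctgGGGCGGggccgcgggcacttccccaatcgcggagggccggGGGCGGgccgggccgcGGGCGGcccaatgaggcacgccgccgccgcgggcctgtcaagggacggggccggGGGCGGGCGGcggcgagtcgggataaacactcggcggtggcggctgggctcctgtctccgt
Mga: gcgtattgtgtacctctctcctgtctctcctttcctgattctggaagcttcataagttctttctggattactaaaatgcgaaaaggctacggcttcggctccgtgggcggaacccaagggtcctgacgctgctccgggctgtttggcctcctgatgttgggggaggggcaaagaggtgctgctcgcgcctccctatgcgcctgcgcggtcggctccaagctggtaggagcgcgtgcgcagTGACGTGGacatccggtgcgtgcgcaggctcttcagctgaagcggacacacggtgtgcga
A match of letters is a description and does not show a bound site.

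Intensities are the deposited values, on a linear scale with array medians between 69.0 and 82.9. Before testing, any intensity below 50 was raised to 50, and a probe set was kept if it exceeded 100 on over 20% of the arrays in the comparison. The test was limma on the log2 scale, with Benjamini-Hochberg adjustment over every probe set kept and a threshold of 0.01. Of the 22 member probe sets, 14 were kept in each comparison, covering all 8 genes, and 7 were kept in none. The brightest probe set of a gene, by its mean over the 16 arrays, stands for it, and the others follow where they differ.

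Mxd1, a repressor known to rise as cells stop dividing and differentiate, was the member that changed in Eμ-xbp-1s B cells. Its brightest probe set was 2.04-fold higher than in nontransgenic B cells. The other tested Mxd1 probe set was 2.38-fold higher, but passed the filter only through the Eμ-xbp-1s B cell arrays. The other 7 genes did not pass the test in that comparison. In Eμ-xbp-1s MM, Mga, a repressor that is also the scaffold of a noncanonical Polycomb complex, was lower than in nontransgenic B cells on 2 of its 3 tested probe sets, by 2.22-fold and 2.30-fold. No member passed the test between Eμ-xbp-1s MM and Eμ-xbp-1s B cells. Myc itself and its partner Max did not pass in any of the 3 comparisons, though with array weights Max was lower in MM than in Eμ-xbp-1s B cells (log2 fold change -0.80, limma adjusted p = 0.00615, against -0.42 and 0.328 without weights).

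These counts stand beside the share of all probe sets called. In Eμ-xbp-1s over nontransgenic B cells, 2 of 14 member probe sets were higher and 0 lower by limma, against 2.75% higher and 0.481% lower of 20596 tested. Of these 2 Mxd1 probe sets, 1 was kept by the filter only through the Eμ-xbp-1s B cell arrays. Without adjustment, 2 were higher and 1 lower at p under 0.05, against 10.6% and 9.47% of all tested. In MM over Eμ-xbp-1s B cells, 0 of 14 were higher and 0 lower by limma, against 1.28% and 1.91% of 22194, and without adjustment 1 was higher and 5 were lower at p under 0.05, against 11.4% and 15.2% of all tested. In MM over nontransgenic B cells, 0 of 14 were higher and 2 lower, against 3.95% and 5.65% of 21894, and without adjustment 2 were higher and 7 lower at p under 0.05, against 15.1% and 20.2% of all tested. The 2 comparisons of MM share the MM arrays, and those with nontransgenic B cells share the nontransgenic arrays. The median log2 fold change of the 14 tested member probe sets was -0.06 in Eμ-xbp-1s over nontransgenic B cells, -0.53 in MM over Eμ-xbp-1s B cells and -0.49 in MM over nontransgenic B cells, and that of all probe sets tested was -0.05, 0.00 and -0.03 in the same 3 comparisons.

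**Figure D1:**
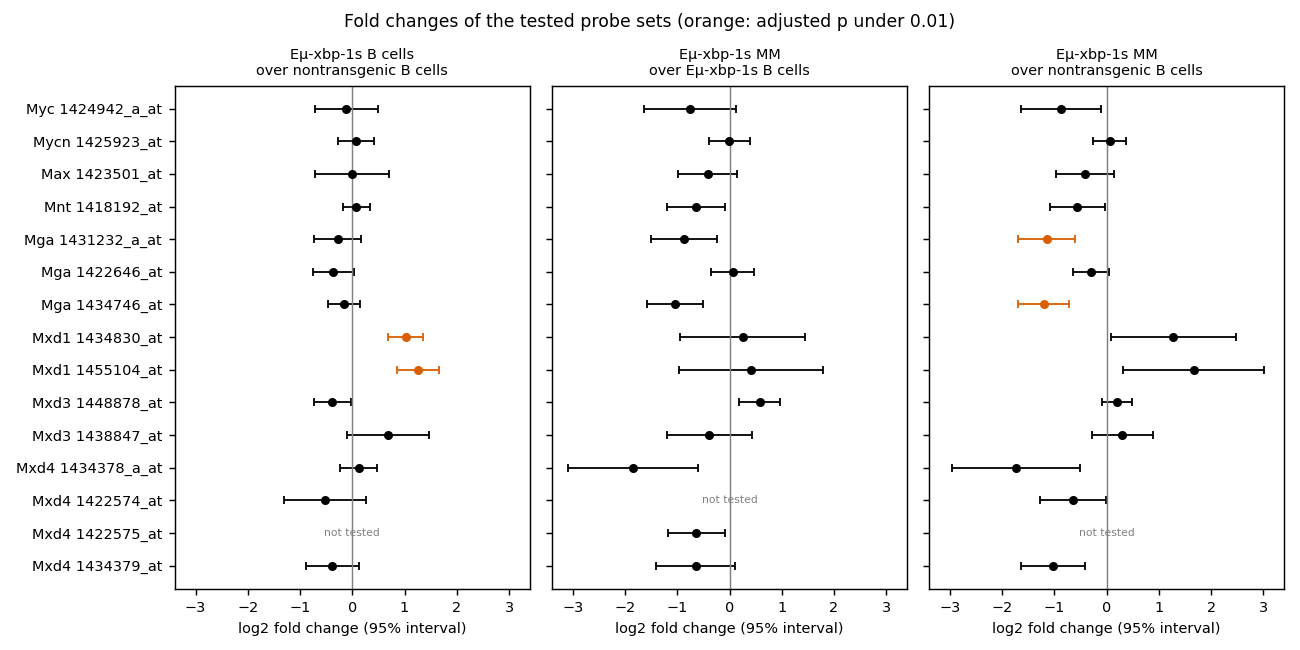
Log2 fold change (x axis) with its 95% interval from limma for each tested probe set of the MYC network genes, in the 3 comparisons, with orange for an adjusted p under 0.01. Both Mxd1 probe sets stand to the right of 0 in Eμ-xbp-1s over nontransgenic B cells (1.03 and 1.25), 2 Mga probe sets to the left in MM over nontransgenic B cells (-1.15 and -1.20), and none is orange in MM over Eμ-xbp-1s B cells.

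The cells behind the arrays differed in ways that touch these results. Mature B cell genes (10 on the array) summed to 905 to 14603 in MM, 14001 to 29535 in Eμ-xbp-1s B cells and 34889 to 37911 in nontransgenic B cells. Neutrophil genes (10) summed to 959 to 63722 in MM, 9801 to 29017 in Eμ-xbp-1s B cells and 1010 to 1882 in nontransgenic B cells, and T cell genes (8) to 627 to 4241, 5363 to 6713 and 686 to 805 in the same order of groups. Among the tumors, replicates 4 and 5 stood apart, with the highest neutrophil sums (63722 and 47467) and erythroid sums (16624 and 24421) and the lowest mature B cell sums (1816 and 905). The other 4 tumors had neutrophil sums of 959 to 1883 and erythroid sums of 179 to 269. Of these 4, replicate 6 had the lowest values of all arrays for Myc (91.1), the brightest Mga probe set (96.0) and Mnt (149). Its sum of the nucleolar targets described below (5800) was also the lowest of all arrays, while its Max (389.7) was the highest of the tumors. Plasma cell genes (8) summed to 3751 to 16258 in MM, 10254 to 15154 in Eμ-xbp-1s B cells and 11233 to 12722 in nontransgenic B cells, and 0 of the 7 tested were higher in MM in either comparison. Irf4, a factor that plasma cells need, was lower in MM than in nontransgenic B cells (log2 fold change -2.19, limma adjusted p = 0.0026). Xbp1 lay between 1477 and 4979 in MM, 2040 and 3108 in Eμ-xbp-1s B cells, and 1802 and 2452 in nontransgenic B cells. It did not pass by limma in MM over Eμ-xbp-1s B cells (adjusted p = 0.854), in MM over nontransgenic B cells (0.659) or between the B cells (0.258), and its probe set is not stated to read the transgene. In such bulk RNA, fewer cells of a type and less RNA of a gene per cell cannot be told apart.

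**Figure D2:**
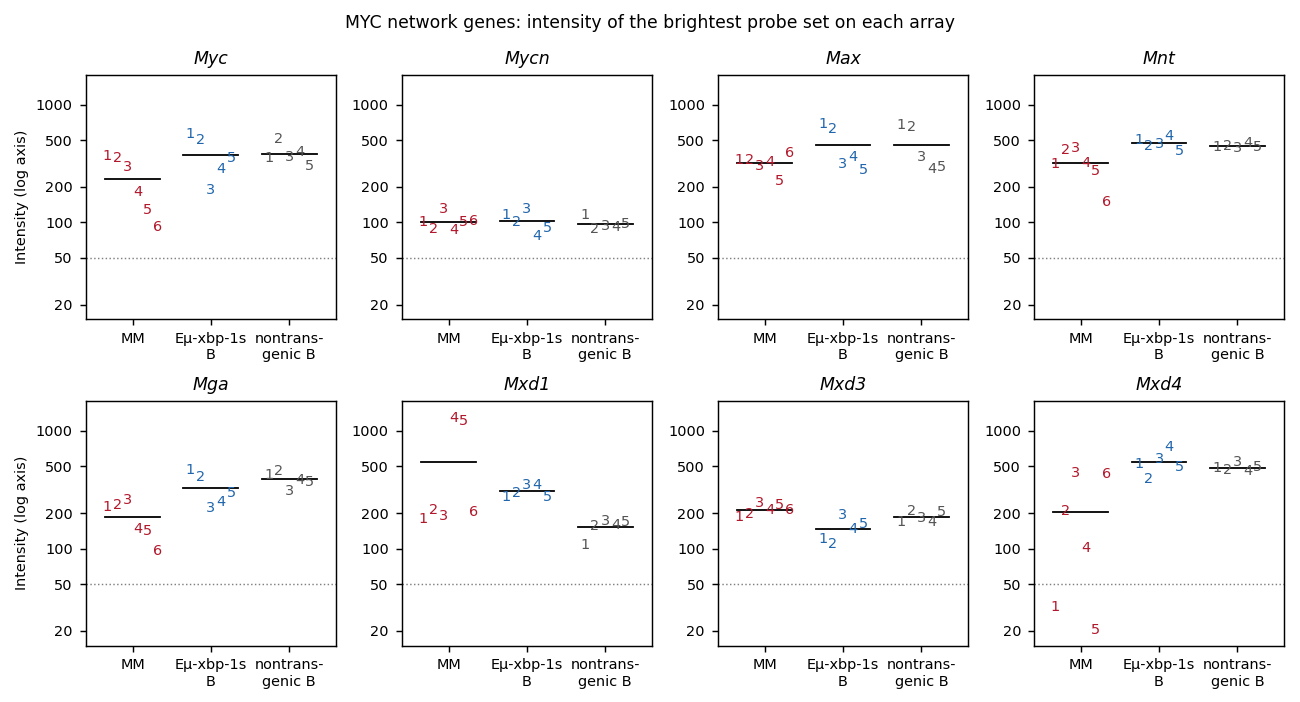
Intensity (log axis) of each MYC network gene by its brightest probe set, one panel a gene, with each digit an array placed at its value and numbered by replicate, bars at the group means and a dotted line at the floor of 50. Mxd1 is above every nontransgenic array on all 5 Eμ-xbp-1s B cell arrays and reaches 1296 and 1210.1 in MM replicates 4 and 5, while Mga on all 6 MM arrays lies below every nontransgenic array.

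Myc, the activator for which the network is named, spanned the 3 groups with overlap. It ran from 91.1 to 363 with a median of 238 in MM. In Eμ-xbp-1s B cells it was at 559.7, 502, 187, 282 and 349.7, and in nontransgenic B cells at 351, 512, 362, 397 and 299.9. Tumor replicates 4, 5 and 6 had the lowest values of the 16 arrays, and tumor replicates 1, 2 and 3 lay among the B cell arrays. By group mean the order was MM (234 ± 117, SD, n = 6), Eμ-xbp-1s B cells (376 ± 154, n = 5) and nontransgenic B cells (384 ± 79.5, n = 5), and no neighbours in it differed beyond their spread by limma. The log2 fold change was -0.76 (95% interval -1.64 to 0.12, adjusted p = 0.257) in MM over Eμ-xbp-1s B cells, -0.87 (-1.63 to -0.11, adjusted p = 0.0978) in MM over nontransgenic B cells and -0.11 (-0.71 to 0.49, adjusted p = 0.866) in Eμ-xbp-1s over nontransgenic B cells. Tumor replicates 4, 5 and 6 were also the 3 arrays with the lowest mature B cell sums (1816, 905 and 6345), and the part of those cells in the Myc values was not tested.

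Mycn, the MYC protein best known from the developing nervous system and from progenitors, sat near the bottom of the measured range. Of its 3 probe sets, 1 was tested, and the other 2 were not kept in any comparison. The tested probe set ran from 85.8 to 129 (median 101) in MM, was at 116, 101, 130.5, 76.7 and 89.3 in Eμ-xbp-1s B cells and at 115, 88.6, 93.7, 91.1 and 96.0 in nontransgenic B cells. The groups overlapped throughout. Its log2 fold changes were -0.01 (95% interval -0.40 to 0.39) in MM over Eμ-xbp-1s B cells, 0.06 (-0.25 to 0.37) in MM over nontransgenic B cells and 0.07 (-0.28 to 0.41) in Eμ-xbp-1s over nontransgenic B cells.

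Max, the shared partner, differed more between arrays of a B cell group than between the groups. It ran from 224 to 389.7 (median 331) in MM. In Eμ-xbp-1s B cells it was at 679.9, 621, 315, 356 and 279, and in nontransgenic B cells at 675, 649, 362, 284 and 294. Replicates 1 and 2 were the 2 highest arrays of both B cell groups, and the MM values lay within the range of the other 3 replicates or near it. The means were 319 ± 54.7 in MM (6 arrays), 450.2 ± 186 in Eμ-xbp-1s B cells (5 arrays) and 453 ± 194 in nontransgenic B cells (5 arrays, SD throughout), and no neighbours differed by limma. The log2 fold change of Eμ-xbp-1s over nontransgenic B cells was 0.00 with a standard error of 0.33 (adjusted p = 0.999), and with the replicate numbers as a block, which pair the B cell arrays by the check on their deviations, the standard error was 0.12 (adjusted p = 0.998). In MM over Eμ-xbp-1s B cells it was -0.42 (95% interval -0.98 to 0.14, adjusted p = 0.328), and in MM over nontransgenic B cells -0.42 (-0.98 to 0.14, adjusted p = 0.271).

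**Figure D3:**
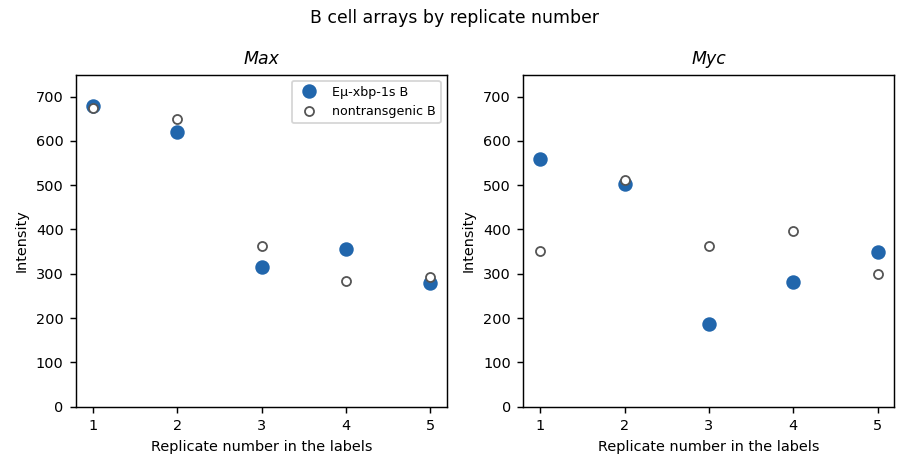
Intensity (y axis, linear) of Max and Myc on the B cell arrays against the replicate number in the labels (x axis), filled points for Eμ-xbp-1s and open points for nontransgenic B cells. Max is highest on replicates 1 and 2 of both groups (679.9 and 621, against 675 and 649), whereas for Myc replicates 1 and 2 are highest in Eμ-xbp-1s B cells alone.

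Mxd1 parted the B cell groups and split the tumors. It ran from 179.7 to 1296 with a median of 208 in MM. In Eμ-xbp-1s B cells it was at 275, 295, 347, 349.6 and 274, and in nontransgenic B cells at 108, 155, 173, 158 and 167. All 5 Eμ-xbp-1s B cell arrays lay above all 5 nontransgenic arrays. The tumors fell apart into replicates 4 and 5 (1296 and 1210.1) and the other 4 (179.7, 211, 190.4 and 205). On this probe set those 4 lay between the B cell groups. The means were 549 ± 546 in MM (6 arrays), 308 ± 37.7 in Eμ-xbp-1s B cells (5 arrays) and 152 ± 25.8 in nontransgenic B cells (5 arrays, SD throughout). In Eμ-xbp-1s over nontransgenic B cells the log2 fold change was 1.03 (standard error 0.15, limma adjusted p = 0.00135). A second probe set, at 162, 169.7, 108, 155 and 234 in Eμ-xbp-1s B cells and at 68.5, 73.1, 75.6, 65.0 and 57.5 in nontransgenic B cells, gave 1.25 (standard error 0.18, limma adjusted p = 0.00123), again with no overlap. It exceeded 100 on all 5 Eμ-xbp-1s B cell arrays and on 0 nontransgenic arrays, so the filter kept it only through the group where it was high. Its call was lost with a floor of 100 and with no filter, so it is not independent support for the brightest. The Mxd1 probe sets were 2 of 14 member probe sets with all Eμ-xbp-1s B cell arrays above, and 0 with all below, against 5.60% above and 3.37% below of all probe sets tested. The remaining Mxd1 probe set was at or under the floor on every array.

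The Mxd1 difference between the B cell groups moved with markers of other cells. The neutrophil list was higher in Eμ-xbp-1s B cells for 6 of 9 tested genes, the T cell list for 8 of 8, the NK cell list for 5 of 6 and the macrophage list for 3 of 8. Macrophage genes (8) summed to 7486 to 13681 in Eμ-xbp-1s B cells and 2824 to 4858 in nontransgenic B cells, with none at or under the floor on any of these arrays. On nontransgenic arrays 3 to 4 of the 10 neutrophil genes were at or under the floor, and on Eμ-xbp-1s B cell arrays none was. Within the Eμ-xbp-1s B cells, replicate 5 had a neutrophil sum of 29017 against 9801 to 12245 on the other 4 arrays, with the lowest value of the brightest Mxd1 probe set (274) and the highest of the second (234). The part of those cells in the difference was not tested. With all 3 groups in a single fit, where the spread of the tumors enters, the same fold changes had adjusted p = 0.44 and 0.403.

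In MM, Mxd1 passed in neither comparison of the main fit. For its brightest probe set, the direction against Eμ-xbp-1s B cells rested on tumor replicates 4 and 5. Over Eμ-xbp-1s B cells the log2 fold change was 0.25 (95% interval -0.94 to 1.44, limma adjusted p = 0.809), and without those tumors it was -0.64 (adjusted p = 0.0374). Over nontransgenic B cells it was 1.28 (0.07 to 2.48, adjusted p = 0.121), with all 6 tumors above all 5 B cell arrays, and 0.38 (adjusted p = 0.135) without them. The same tumors were the highest of all arrays for Mxi1, the sister repressor MXD2, at 1170 and 1656 against 244 to 375 in the other 4 tumors. The part of neutrophil or erythroid cells in the values of replicates 4 and 5 was not tested.

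Mga was lower in the tumors on both of its brighter probe sets. The brightest ran from 96.0 to 257 with a median of 187 in MM. In Eμ-xbp-1s B cells it was at 469.7, 408, 222, 249 and 299.6, and in nontransgenic B cells at 422, 456, 311, 382 and 369. All 6 tumors lay below all 5 nontransgenic arrays, and the Eμ-xbp-1s B cells lay between, overlapping both. The log2 fold change of MM over nontransgenic B cells was -1.15 (standard error 0.25, limma adjusted p = 0.00732). The second probe set ran from 84.0 to 207 (median 130.3) in MM, with 309.7, 267, 198, 298 and 249 in Eμ-xbp-1s B cells and 274, 307, 307, 304 and 270.0 in nontransgenic B cells, and gave -1.20 (standard error 0.23, limma adjusted p = 0.0033), also with no overlap. Another tested probe set, dimmer at 75.7 to 111 in MM and 86.1 to 129 in nontransgenic B cells, gave -0.30 (95% interval -0.65 to 0.04, adjusted p = 0.198), so the probe sets of Mga did not all show the difference. The other 2 were not kept in any comparison.

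The calls of Mga were close to the threshold. Leaving out each of the 11 arrays in turn, the brightest probe set passed 4 times (log2 fold change -1.26 to -0.98, adjusted p = 0.0039 to 0.0239) and the second 8 times (-1.35 to -1.09, adjusted p = 0.000732 to 0.0112), and neither passed without nontransgenic replicate 2, 3 or 4. Without tumor replicates 4 and 5 the second still passed (-0.92, adjusted p = 0.00472) and the brightest did not (-1.01, adjusted p = 0.0286). With the replicate numbers as a block the brightest was at -0.98 (adjusted p = 0.0135). That fit cannot decide the call, because the MM numbers were not taken as pairs. Tumor replicate 6, which has no nontransgenic partner, adds nothing to its fold change. Against Eμ-xbp-1s B cells, MM had log2 fold changes of -0.87 (limma adjusted p = 0.0787) and -1.04 (adjusted p = 0.02). The second probe set passed there without tumor replicate 3 (-1.18, adjusted p = 0.00702) and after quantile normalization, median scaling or a single fit of all 3 groups, and with array weights both passed (-0.83 and -0.85, adjusted p = 0.00349 and 0.000975). In order of group mean the brightest probe set stood at 184 ± 64.4 in MM (6 arrays), 329.7 ± 106 in Eμ-xbp-1s B cells (5 arrays) and 388 ± 55.2 in nontransgenic B cells (5 arrays, SD throughout), with no neighbours that differed by limma at 0.01.

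**Figure D4:**
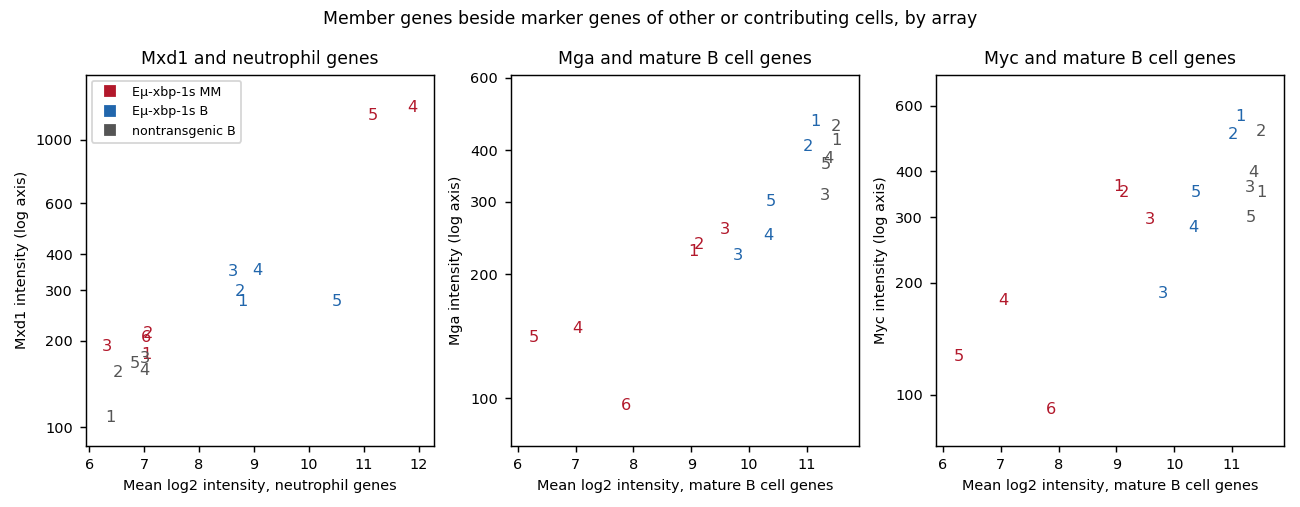
Intensity (y axes, log) of Mxd1, Mga and Myc on each array against the mean log2 intensity of the neutrophil or mature B cell genes (x axes), with each digit an array numbered by replicate and coloured by group. Mxd1 is highest on MM replicates 4 and 5 (1296 and 1210.1), which also have the highest neutrophil levels, and Mga is at 257 or less on all 6 tumors, which have lower mature B cell levels than any B cell array.

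Mature B cell genes moved beside Mga: 5 of 10 tested were lower in MM than in nontransgenic B cells and 3 of 10 lower than in Eμ-xbp-1s B cells. No mature B cell gene was at or under the floor on a B cell array, and up to 4 of the 10 were in a tumor. Tumors 1, 2 and 3, with mature B cell sums of 14603, 13798 and 14380, near the lowest Eμ-xbp-1s B cell array (14001, replicate 3), had the brightest Mga probe set at 227, 236 and 257, against 222 on that array. The second Mga probe set was at 144, 161 and 207 in these tumors, against 198 on that array. By mean log2 intensity the mature B cell genes were at 9.03, 9.13 and 9.58 in these tumors, against 9.81 on that array. That array was also the lowest of its group on both Mga probe sets and had the highest erythroid sum of the B cell arrays (8559). Being 1 array, it serves as a description only. Stromal genes, 6 of 8 higher in MM in each comparison, went the opposite way to Mga between the groups. The part of these cells in the Mga values was not tested.

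Mnt, the repressor found in most tissues, was even among the B cells. It ran from 149 to 432 (median 318) in MM, and was at 499, 448, 465, 544 and 402 in Eμ-xbp-1s B cells and at 440.5, 441, 429, 476 and 435 in nontransgenic B cells. Tumor replicates 2 and 3 (414 and 432) reached the B cell range and the other 4 lay below it. The log2 fold change was -0.64 (95% interval -1.19 to -0.09, limma adjusted p = 0.126) in MM over Eμ-xbp-1s B cells, -0.56 (-1.09 to -0.04, adjusted p = 0.116) in MM over nontransgenic B cells and 0.08 (-0.17 to 0.33, adjusted p = 0.766) between the B cells. Its second probe set was at or under the floor on every array.

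Mxd4, a repressor known from resting and differentiating cells, had the widest range of all members, 3.86 on the log2 scale over the 16 arrays with values under 50 set to 50. Its brightest probe set was at 32.0, 209, 438, 102, 20.3 and 429 in tumor replicates 1 to 6, with a median of 155. The Eμ-xbp-1s B cells were at 519, 388, 577, 724 and 491, and in nontransgenic B cells at 479.8, 462, 544, 461 and 490.0. Tumor replicates 3 and 6 stood just below the nontransgenic arrays, and replicates 1 and 5 were under the floor of 50, so the fitted fold changes depend on it. They were -1.85 on the log2 scale (95% interval -3.09 to -0.61, limma adjusted p = 0.0586) in MM over Eμ-xbp-1s B cells and -1.73 (-2.95 to -0.50, adjusted p = 0.0463) in MM over nontransgenic B cells, neither past 0.01. With array weights the difference from nontransgenic B cells was past 0.01. The difference between the B cells was 0.12 (-0.23 to 0.47, adjusted p = 0.738). Without tumor replicates 4 and 5 the fold changes of MM were -1.33 and -1.21 (adjusted p = 0.162 and 0.153).

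A second Mxd4 probe set was measured above the floor on every array. It ran from 90.0 to 323 (median 187) in MM, and was at 401, 337, 155, 237 and 390.5 in Eμ-xbp-1s B cells and at 346, 377, 382, 397 and 368 in nontransgenic B cells. All 6 tumors again lay below all nontransgenic arrays, at a log2 fold change of -1.03 (95% interval -1.64 to -0.42, limma adjusted p = 0.0218), which was past 0.01 only after median scaling, with array weights or without tumor replicate 3. Over Eμ-xbp-1s B cells, where replicates 3 and 4 were low, it was -0.65 (-1.40 to 0.11, adjusted p = 0.258). With both Mga and both Mxd4 probe sets, 4 of 14 member probe sets had all tumors below all nontransgenic arrays and 1 (Mxd1) had all above, against 9.55% below and 6.59% above of all probe sets tested. In MM over Eμ-xbp-1s B cells there were 0 of either kind, against 4.15% and 4.04%. The 2 other Mxd4 probe sets were dim, at medians of 52.7 to 118 over the groups, and did not pass where tested in the main fit. With array weights 1 of them was lower in MM than in nontransgenic B cells past 0.01.

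Mxd3, an MXD protein known from dividing cells in S phase, gave opposite signs on its 2 tested probe sets. The brightest ran from 184 to 243 (median 212) in MM, and was at 120.1, 109, 194, 146 and 160.4 in Eμ-xbp-1s B cells and at 169, 208, 183, 169 and 204 in nontransgenic B cells. Of the 6 tumors, 5 lay above every Eμ-xbp-1s B cell array. The log2 fold change was 0.58 (95% interval 0.19 to 0.96, limma adjusted p = 0.0586) in MM over Eμ-xbp-1s B cells, 0.20 (-0.09 to 0.48, adjusted p = 0.315) in MM over nontransgenic B cells and -0.38 (-0.74 to -0.02, adjusted p = 0.219) in Eμ-xbp-1s over nontransgenic B cells. The second probe set ran from 97.3 to 271 (median 136) in MM, and was at 106, 104, 377, 301 and 222 in Eμ-xbp-1s B cells and at 85.0, 98.1, 153, 137 and 152 in nontransgenic B cells. In both B cell groups its lowest arrays were replicates 1 and 2, the arrays with the highest Max. It gave -0.38 (adjusted p = 0.554), 0.29 (adjusted p = 0.468) and 0.68 (adjusted p = 0.326) in the same 3 comparisons, so no direction is given for Mxd3 between the B cells or between MM and Eμ-xbp-1s B cells.

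The genes whose log2 pattern over the 16 arrays lay nearest to a member were found for the 3 members of widest range, as the root mean square difference after each gene was centred on its own mean. For Mxd4 they were Arhgap15, Zfp946 and Cmah, at 0.46, 0.52 and 0.53. For Mxd1 they were Adam8, Cln8 and Fosl2, at 0.29, 0.30 and 0.30, and for Myc they were Vps28, Lrp10 and Ncoa5, at 0.14, 0.17 and 0.18. The 16 arrays share 3 groups and the 2 tumors that stood apart, so these are descriptions. Adam8, a membrane protease of myeloid cells, averaged 280.2 in MM, 155 in Eμ-xbp-1s B cells and 90.1 in nontransgenic B cells. In the same order of groups, Cln8 averaged 372, 190 and 88.6, and Fosl2 averaged 248, 125 and 20.1.

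Beyond the members, partners and targets of the network were counted from fixed lists, with 1 probe set a gene. In Eμ-xbp-1s over nontransgenic B cells none passed the test among the other network genes (5 tested), cofactors and corepressors (13), regulators of MYC turnover (7), nucleolar targets (16), metabolic targets (15) and targets repressed by MYC (3). At an unadjusted p under 0.05 the higher ones numbered 1, 1, 1, 0, 3 and 0 in the same order, and the lower ones 2, both of them nucleolar. Of all probe sets tested, 10.6% were higher and 9.47% lower at that p by limma. The medians of the target lists were -0.17 for nucleolar, 0.18 for metabolic and 0.03 for repressed targets, beside -0.05 for all probe sets tested.

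In the tumors the nucleolar targets, which serve ribosome production, stayed without a call. Their median log2 fold change was -0.12 in MM over Eμ-xbp-1s B cells and -0.20 over nontransgenic B cells, with 0 of 16 past the test in either (limma). Without adjustment, 1 was higher and 1 lower at p under 0.05 in MM over Eμ-xbp-1s B cells, against 11.4% and 15.2% of all probe sets tested. Over nontransgenic B cells 0 were higher and 2 lower, against 15.1% and 20.2%. Their summed intensity lay between 5800 and 15009 in MM, 8077 and 14212 in Eμ-xbp-1s B cells, and 8920 and 13981 in nontransgenic B cells. Tumor replicates 4, 5 and 6, which were lowest for Myc, had the 3 lowest sums of the tumors (8136, 7094 and 5800). E-boxes stood in 3 of the 13 promoters matched for this list and in 6 of the 21 matched for the metabolic list.

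Metabolic targets had medians of 0.40 in MM over Eμ-xbp-1s B cells, with 0 of 15 past the test, and 0.35 in MM over nontransgenic B cells, with 2 of 15 higher. Of all probe sets tested, 1.28% and 3.95% were higher in these comparisons. Without adjustment, 4 and 6 were higher at p under 0.05, against 11.4% and 15.1% of all tested. In both comparisons 0 were lower at that p, against 15.2% and 20.2%. The 2 past the test were Ldha, the lactate dehydrogenase of glycolysis, and Hk2, a hexokinase. Ldha ran from 2904 to 4967 (median 4446) in MM, against 2043 to 2562 in nontransgenic B cells, a log2 fold change of 0.89 (limma adjusted p = 0.00248). Hk2 ran from 99.8 to 460.5 (median 352) in MM, against 87.3 to 119.9 in nontransgenic B cells, a log2 fold change of 1.48 (limma adjusted p = 0.00805). All 6 tumors were above the nontransgenic arrays for Ldha and 5 of 6 for Hk2, whose lowest tumor was replicate 6. The summed intensity of the metabolic list lay between 11042 and 26708 in MM, 10646 and 13113 in Eμ-xbp-1s B cells, and 8959 and 11450 in nontransgenic B cells. Its highest tumors were replicates 4 and 5 (22468 and 26708), which stood apart in other cell markers, and the lowest, replicate 6, lay within the B cell range. Cycling genes (7 of 10 tested higher in MM over nontransgenic B cells) and stromal genes (6 of 8) moved with the list, and the part of those cells in it was not tested. Ldha and Hk2 are also known to rise in hypoxia.

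Of all probe sets tested, 1.28% were higher in MM over Eμ-xbp-1s B cells and 3.95% over nontransgenic B cells. Among the regulators of MYC turnover, Aurka, a mitotic kinase known to stabilise MYCN protein, was higher in MM than in either B cell group. It was the 1 called of 7 tested in each comparison. It ran from 212 to 1035 (median 358) in MM, and the Eμ-xbp-1s B cells lay at 83.3 to 146 and the nontransgenic B cells at 72.7 to 168, with log2 fold changes of 1.98 (limma adjusted p = 0.00556) and 1.82 (adjusted p = 0.00527). Cycling genes moved with it, with 6 of 10 tested higher in MM over Eμ-xbp-1s B cells and 7 of 10 over nontransgenic B cells, and the part of dividing cells in its level was not tested. Of the targets repressed by MYC, Cdkn1a, the cell cycle inhibitor p21, was higher in MM. It was the 1 called of 4 tested over Eμ-xbp-1s B cells and of 5 tested over nontransgenic B cells. It ran from 153 to 709 (median 243) in MM, and the Eμ-xbp-1s B cells lay at 58.6 to 98.0 and the nontransgenic B cells at 59.2 to 90.9, with log2 fold changes of 1.94 (limma adjusted p = 0.00685) and 2.02 (adjusted p = 0.00242). Aurka and Cdkn1a were highest in tumor replicates 4 and 5. The repressed list as a whole had median log2 fold changes of 0.26 over Eμ-xbp-1s B cells and 0.08 over nontransgenic B cells. Its brightest gene, Cdkn1b, averaged 871 in MM, 1299 in Eμ-xbp-1s B cells and 1254 in nontransgenic B cells, without a call. No cofactor and none of the other network genes passed in either comparison of MM, with cofactor medians of -0.19 over Eμ-xbp-1s B cells and -0.27 over nontransgenic B cells.

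**Figure D5:**
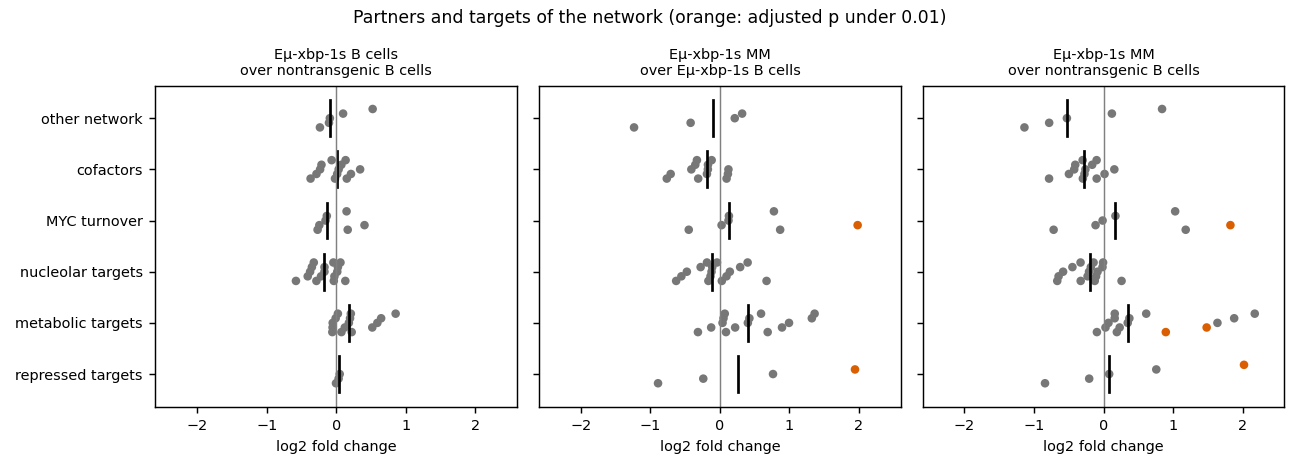
Log2 fold change (x axis) of each tested gene of the 6 lists of network partners and targets, 1 point a gene, with a bar at the list's median and orange for an adjusted p under 0.01 by limma. No point is orange in Eμ-xbp-1s over nontransgenic B cells, 2 are in MM over Eμ-xbp-1s B cells (Aurka and Cdkn1a) and 4 in MM over nontransgenic B cells (the same 2 with Ldha and Hk2).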

How the data were processed

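The authors hybridised total RNA to Affymetrix mouse arrays, 1 array a sample, and processed them in dChip. Arrays were scaled to a typical one among them, and the signal of mismatch probes was subtracted in the expression model. The deposited values are intensities of 45101 probe sets on a linear scale, of which 64 controls were left out. The platform annotation gives 34958 probe sets a single gene, 932 several and 9211 none here. The lowest value is 1, held by 0.764% of values, and presence calls were not used here. Low values carry subtracted mismatch signal, which makes ratios near the floor unreliable.

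Groups and replicate numbers came from the sample labels. Each pair of groups was fitted on its own with limma 3.58.1 (lmFit and eBayes) in R 4.3.3, in place of the SAM test of the methods, on log2 intensities floored at 50, after a filter that kept probe sets exceeding 100 on over 20% of the arrays in the comparison. Benjamini-Hochberg adjustment ran over all probe sets tested, with a threshold of 0.01. The number of arrays limits the precision. The fits were tested on simulated data first. Tables were made with pandas 2.3.3 and numpy 2.4.6 in Python 3.11.15, and plots with matplotlib 3.10.9. Promoters came from RefSeq.

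The 8 members, the gene lists and the tests were chosen with earlier results of these data known. All 8 member genes are named, with up to 4 called genes of each other list. Same-numbered Eμ-xbp-1s and nontransgenic B cell arrays deviated together from their group means (correlations of 0.512, 0.527, 0.218, 0.176 and 0.512 over probe sets, each over 0.1). By this rule on the data the numbers were taken as pairs there, though the labels say nothing of a shared litter or day. The pairs entered only the fits with the replicate block, and the main fits were unpaired. Same-numbered MM arrays correlated with the B cells at -0.284 to 0.442 and were not taken as pairs. No array pair held identical values. The alternatives comprised other floors (16 and 100), a pseudocount of 50, other filters, quantile normalization, median scaling, trend and robust variance, array weights, a single fit of all 3 groups, the replicate block, an adjusted p under 0.05, averaging over the probe sets of a gene, and leaving out arrays.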

Additional observations from a re-analysis of the deposited data

Results flagged for a closer look

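Among 45 groups of arrays of the tested member probe sets, 4 held an array separated from the rest of its group by more than Dixon's 95% criterion, and chance marks about 1 in 20 groups. Of the nontransgenic B cell arrays, replicate 1 was at 115 (114.76) for Mycn, against 88.6 to 96.0 on the other 4. The same array was at 108 for the brightest Mxd1 probe set, the lowest of its group, against 155 to 173 on the others. Nontransgenic replicate 4 was at 476 for Mnt, against 429 to 441. Replicate 3 of the Eμ-xbp-1s B cells was at 235 for a dim Mxd4 probe set, against 35.4 to 75.9.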

How the results depend on the processing

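Of 600 values of single genes under the alternatives, 583 kept their sign where called and their side of the threshold, 11 were weaker, 6 stronger and 0 reversed, and of 146 counts of calls 122 stayed within 1.5 times. The 2 higher probe sets of Eμ-xbp-1s over nontransgenic B cells (Mxd1) became 1, the brightest, with a floor of 100 or no filter on low values. They became 0 in a single fit of all 3 groups, and held at 2 with each array left out in turn. With array weights 1 (Mxd3, log2 fold change -0.65, adjusted p = 0.00264) was lower there. In MM over Eμ-xbp-1s B cells the count lower became 1 after quantile normalization, median scaling, a single fit or at an adjusted p under 0.05, and 3 with array weights (Max and both brighter Mga probe sets), which also made 1 higher (Mxd3). It was 0 to 1 with arrays left out, the 1 without MM replicate 3. In MM over nontransgenic B cells the 2 lower (Mga) became 0 with no filter, 4 at an adjusted p under 0.05 and 1 without MM replicates 4 and 5. They were 0 to 3 with arrays left out, 0 without nontransgenic replicate 2, 3 or 4. With array weights 5 were lower there (Mga and Mxd4 probe sets) and 1 higher, the second Mxd1 probe set. The cause of these changes was not tested.

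With the replicate numbers as a block, the 2 lower of MM over nontransgenic B cells became 1, and no other count of calls of the members changed. For MM the block is not a pairing, and tumor replicate 6 has no partner in it, so it cannot decide those calls. Only replicates 2 and 3 of the B cells correlated best with their own number. Median scaling moved the median log2 fold change of all probe sets to -0.14 in MM over nontransgenic B cells, against -0.03, and its calls to 694 higher and 2078 lower, against 864 and 1236. In MM over Eμ-xbp-1s B cells it gave 247 higher and 762 lower, against 285 and 423. The members near the floor (Mycn, the dim probe sets) are limited by signal over background.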
